A study of Bos taurus with 31 samples.

Results

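The 10 genes described here encode subunits of the transcription factor NF-kappaB and the proteins that restrain or follow its activity, and they were taken from the raw gene count matrix by symbol: *ZC3H12A*, *NFKBIA*, *TNFAIP3*, *NFKBIZ*, *BCL3*, *NFKB1*, *NFKB2*, *RELB*, *BIRC3* and *IRAK3*. Each symbol occurred in 1 row of the 24616 gene rows, and all 10 reached the minimum of 20 reads over the 31 cows, as did 15916 genes in all. The genes were chosen by their known function, but with results of these animals already in view, and which comparison guided the choice is not recorded. It was taken to be GLYHC against GLYLC, in which *ZC3H12A* and *RELB* had drawn attention. Values of that contrast, and of contrasts that contain or reuse its cows, are therefore a description: calls are stated where the model made them, but no p-values are printed and nothing is read from them.

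Liver biopsies came from 31 lactating German Holstein cows in week 16 of a feeding trial with a factorial design, and 1 mRNA library was sequenced per cow. Rations held 60% (HC) or 30% (LC) concentrate of dry matter, the concentrate feed proportion (CFP). GLY cows ate a mixed ration whose plant components carried residues of a Roundup formulation of glyphosate, and CON cows ate the matching control ration, which can still carry background traces. The groups were CONHC (8 cows), CONLC (8 cows), GLYHC (8 cows) and GLYLC (7 cows), and cows are named by group and animal number. Assigned reads ranged from 11675775 to 36675542 per cow, with a median of 19781078 reads. The tissue label was met by the summed level of 12 hepatocyte markers, which lay between 109046 and 221649 CPM (reads of a gene scaled to a common library size) over the 31 cows. The lowest sum was that of GLYLC cow 912, which also held reads of intestinal epithelium markers (below). The biopsies hold all liver cell types, so fewer cells of a type and less RNA per cell cannot be told apart.

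NF-kappaB is a family of paired transcription factors that is kept in the cytoplasm by inhibitory IkappaB proteins until receptors for cytokines or microbial products release it. Many of the genes it switches on then act back on it: new IkappaB protein recaptures the factor, and deubiquitinating enzymes and RNases take down the signal and its transcripts. In the liver the pathway is known from resident macrophages (Kupffer cells), endothelial cells and hepatocytes, where it takes part in the response to gut-derived bacterial products.

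Levels are given as CPM after library scaling by the TMM method, and differences as log2 fold changes from a quasi-likelihood model over all cows. A gene was called when its unadjusted p was under 0.05 and its adjusted p, over all 15916 genes, was under 0.1. Levels are not compared between genes, because no transcript lengths were used. In the order of the 4 group means, both HC means were above both LC means for 7 of the 10 genes, and GLYHC had the highest mean for 6. Of the 30 steps between neighbouring group means in these orders, 3 were larger than the larger of the neighbours' SDs, and these were the steps from CONLC to CONHC of *ZC3H12A*, *BCL3* and *NFKB2*. None of the 10 genes separated the groups of a comparison without overlap. The share of all genes that did so is not given here, so nothing is read from this.

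**Figure D1:**
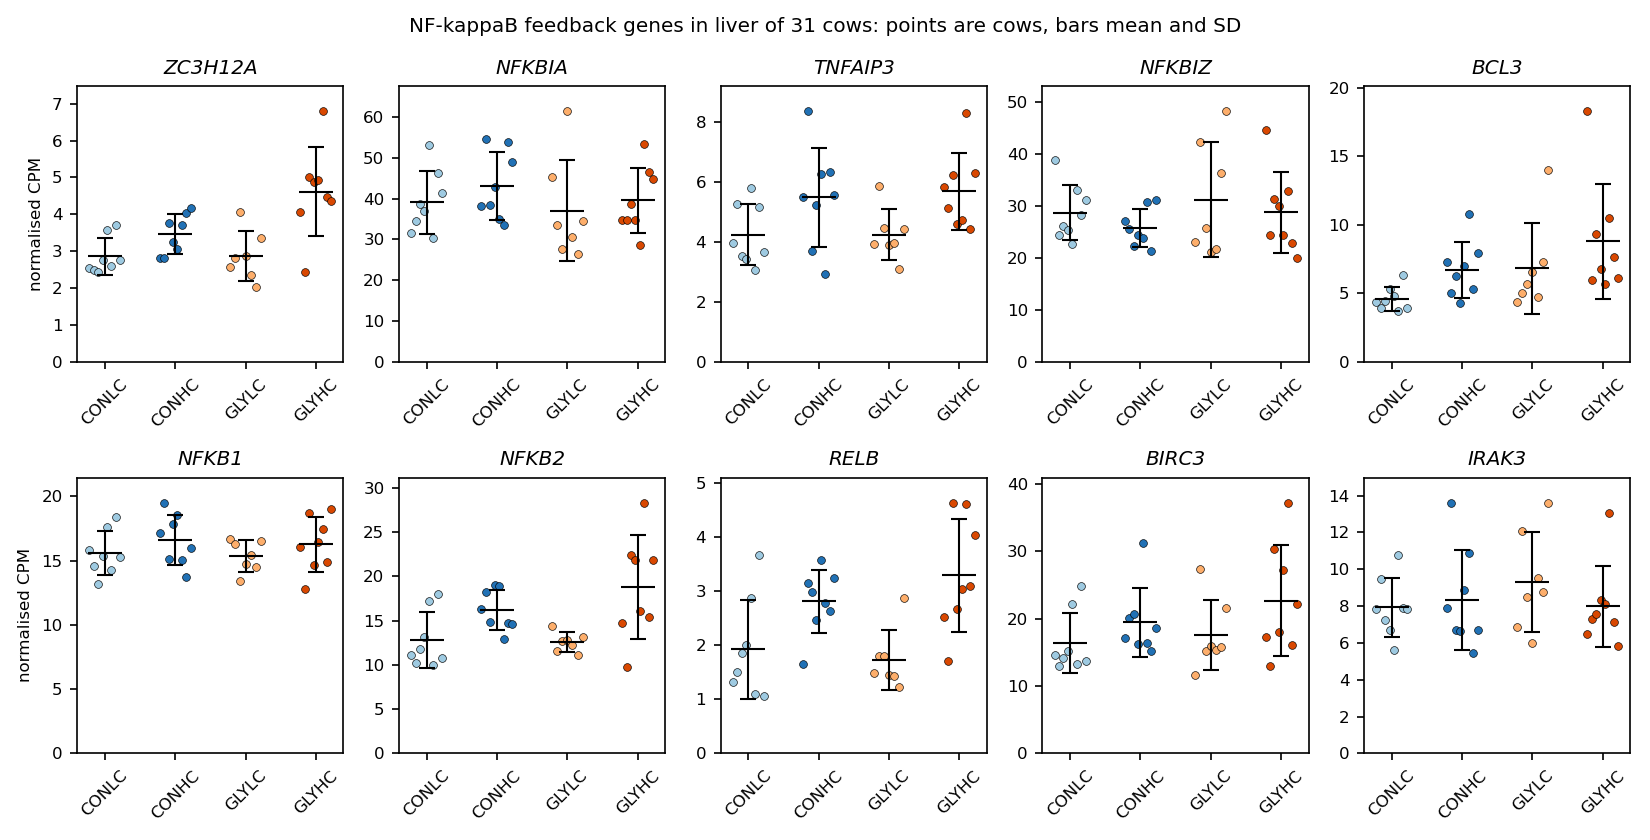
Normalised CPM (y axes, starting at 0) of the 10 genes in each of the 31 cows, by feeding group (x axes), with the group mean and SD as bars. *RELB* was lowest in CONLC cow 941 at 1.06 CPM and highest in GLYHC cow 117 at 4.64 CPM, and in every panel the points of all 4 groups overlap.

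Among the subunits, *RELB* (ENSBTAG00000038428), which pairs with the *NFKB2* product in the non-canonical branch of the pathway, had the highest fitted ration difference of the 10 genes over all cows. In CON cows its lowest, median and highest levels were 1.06, 1.69 and 3.68 CPM on low and 1.65, 2.89 and 3.57 CPM on high concentrate. In GLY cows they were 1.22, 1.48 and 2.88 CPM on low and 1.72, 3.07 and 4.64 CPM on high concentrate. All 8 GLYHC cows lay above the median of GLYLC and 5 of them above its highest cow, whereas 7 of 8 CONHC cows lay above the CONLC median and 0 above its highest cow. The log2 fold change was 0.53 (SE 0.24) between CONHC and CONLC and 0.92 (SE 0.25) between GLYHC and GLYLC. *RELB* had few reads, 14 to 107 per cow, so counting error is a part of its spread.

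*NFKB2* (ENSBTAG00000006017), the precursor of the other non-canonical subunit, had 9.998, 11.4 and 18.0 CPM as the lowest, median and highest values of CONLC and 12.9, 15.6 and 19.0 CPM in CONHC. In GLYLC these values were 11.1, 12.7 and 14.4 CPM and in GLYHC 9.74, 19.0 and 28.3 CPM. The GLYLC cows formed the narrowest group and the GLYHC cows the widest, with 7 of 8 GLYHC cows above every GLYLC cow and the remaining one, cow 37, below every GLYLC cow. Its log2 fold change was 0.34 (SE 0.15) in CON and 0.58 (SE 0.16) in GLY cows.

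*NFKB1* (ENSBTAG00000020270), the precursor of a subunit of the canonical dimer, was the steadiest of the 10 genes, with a coefficient of variation within groups of 11.2%. Group means were 15.6 ± 1.72 (SD) CPM in CONLC, 16.6 ± 1.97 in CONHC, 15.4 ± 1.22 in GLYLC and 16.3 ± 2.12 in GLYHC. The log2 fold change by CFP was 0.09 (SE 0.08) in CON and 0.08 (SE 0.09) in GLY cows, and the 95% interval in CON cows ran from -0.07 to 0.26. Neither difference exceeded the spread between cows.

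Of the inhibitors that act on signalling proteins, *TNFAIP3* (ENSBTAG00000000436), which encodes the ubiquitin-editing enzyme A20, had lowest, median and highest levels of 3.07, 3.81 and 5.80 CPM in CONLC and 2.92, 5.52 and 8.35 CPM in CONHC. In GLYLC they were 3.09, 3.97 and 5.86 CPM and in GLYHC 4.43, 5.47 and 8.28 CPM. The groups overlapped, and 6 of 8 CONHC cows and 8 of 8 GLYHC cows lay above the median of the matching LC group. The log2 fold changes were close, 0.37 (SE 0.17) in CON and 0.42 (SE 0.18) in GLY cows.

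*NFKBIA* (ENSBTAG00000016683) encodes IkappaB-alpha, the inhibitor that is resynthesised when NF-kappaB enters the nucleus. Its means were 39.1 ± 7.69 (SD) CPM in CONLC, 43.2 ± 8.34 in CONHC, 37.0 ± 12.4 in GLYLC and 39.5 ± 8.04 in GLYHC. The widest group was GLYLC, from 26.4 CPM in cow 905 to 61.4 CPM in cow 209. Differences by CFP were within the spread, with log2 fold changes of 0.14 (SE 0.16) in CON and 0.09 (SE 0.16) in GLY cows.

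*IRAK3* (ENSBTAG00000007636), an inhibitor of signalling from Toll-like and interleukin-1 receptors, had means of 7.93 ± 1.60 (SD) CPM in CONLC, 8.35 ± 2.71 in CONHC, 9.33 ± 2.72 in GLYLC and 7.98 ± 2.21 in GLYHC. It was the only one of the 10 genes whose fitted sign differed between the treatments, at 0.08 (SE 0.18) in CON and -0.23 (SE 0.19) in GLY cows. The value in CON cows turned to -0.058 without CONHC cow 41, which had 13.6 CPM. Both values lay within the spread between cows.

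*ZC3H12A* (ENSBTAG00000011316) encodes Regnase-1, an RNase that degrades transcripts of inflammatory cytokines. Lowest, median and highest levels were 2.45, 2.68 and 3.71 CPM in CONLC and 2.81, 3.49 and 4.18 CPM in CONHC. In GLY cows they were 2.02, 2.80 and 4.06 CPM on low and 2.42, 4.67 and 6.80 CPM on high concentrate. All 8 CONHC cows lay above the CONLC median, and 6 of 8 GLYHC cows lay above every GLYLC cow, while GLYHC cow 37 at 2.42 CPM lay below the GLYLC median. The log2 fold change was 0.27 (SE 0.16) in CON and 0.68 (SE 0.16) in GLY cows, and the reads behind these values were 33 to 166 per cow.

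*BIRC3* (ENSBTAG00000024918) encodes a ubiquitin ligase that blocks cell death and takes part in signalling from tumour necrosis factor receptors. In CON cows its lowest, median and highest levels were 13.0, 14.4 and 24.8 CPM on low and 15.2, 17.9 and 31.2 CPM on high concentrate. In GLY cows they were 11.6, 15.8 and 27.3 CPM and 13.0, 20.1 and 37.2 CPM. Every CONHC cow was above the CONLC median, but CONLC cows 169 and 260 and GLYLC cows 102 and 912 lay above the median of the matching HC group. The log2 fold change was 0.25 (SE 0.20) in CON and 0.36 (SE 0.20) in GLY cows.

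The nuclear cofactors *BCL3* and *NFKBIZ* are atypical IkappaB proteins that bind NF-kappaB on DNA and change which targets it activates. *BCL3* (ENSBTAG00000009493) had lowest, median and highest levels of 3.70, 4.39 and 6.33 CPM in CONLC and 4.31, 6.62 and 10.8 CPM in CONHC. In GLYLC these were 4.37, 5.70 and 13.99 CPM and in GLYHC 5.70, 7.19 and 18.3 CPM. A single cow stood far above the others in each GLY group, cow 912 in GLYLC and cow 32 in GLYHC. The log2 fold change by CFP was 0.54 (SE 0.24) in CON and 0.36 (SE 0.24) in GLY cows, and in GLY cows it was 0.12 without GLYHC cow 32 and 0.64 without GLYLC cow 912.

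*NFKBIZ* (ENSBTAG00000010987) had a lower fitted level on high than on low concentrate in both treatments. Its means were 28.7 ± 5.32 (SD) CPM in CONLC, 25.7 ± 3.63 in CONHC, 31.1 ± 10.99 in GLYLC and 28.7 ± 7.80 in GLYHC. The log2 fold change was -0.15 (SE 0.17) in CON cows and -0.12 (SE 0.17) in GLY cows, and the latter was 0.021 without GLYLC cow 912, which had the highest level of all cows at 48.2 CPM. Both values were smaller than their error.

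Whether CFP was associated with these genes on the control rations was examined in the 16 CON cows. None of them was in a group of the contrast taken as the selecting one, but edgeR estimated the spread over all 31 cows. The genes were also chosen with results of all cows known, so the p-values here are not independent of the choice. Of the 10 genes, 9 were higher and 1 was lower in CONHC than in CONLC, with a median log2 fold change of 0.26 against -0.01 over all genes tested. None of the 10 genes was called, by edgeR or by DESeq2, and edgeR called 0% of all genes (0 of 15916). DESeq2 called 27 of all genes when fitted on all cows and 81 when fitted on only the CONHC and CONLC cows. The unadjusted edgeR p was under 0.05 for 4 of the 10 genes, *BCL3*, *RELB*, *NFKB2* and *TNFAIP3*, all higher in CONHC. Among all genes this share was 5.96%, and 2.71% for genes higher in CONHC. The 4 genes are not 4 independent results, because *RELB*, *NFKB2* and *TNFAIP3* were correlated with one another across cows (below). The unadjusted p was 0.0307 for *BCL3* (1.46-fold, higher than the CONLC median in 7 of 8 CONHC cows), 0.0346 for *RELB* (1.44-fold), 0.0354 for *NFKB2* (1.27-fold) and 0.0419 for *TNFAIP3* (1.29-fold). After adjustment over all genes, edgeR gave p from 0.802 to 0.808 for these 4 genes and up to 0.997 for the other members. The count of 4 was 5 without CONLC cow 260, which was above the median of all 31 cows for each of the 10 genes. It was 2 without CONLC cow 145, 1 without CONLC cow 60 or 103 or CONHC cow 41, 134 or 208, and 0 without CONLC cow 259 or 941.

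In the 15 GLY cows the same ration contrast gave a median log2 fold change of 0.36 for the 10 genes against -0.01 over all genes, with 8 higher and 2 lower in GLYHC. By edgeR *ZC3H12A* was the only one of the 10 called, where 0.201% of all genes were called. DESeq2 called 3 of the 10 when fitted on all cows, where it called 143 of all genes. Fitted on only these groups it called 2 of the 10, and 87 of all genes. As this contrast had a part in the selection, nothing is read from the count. The call was close to the threshold: it was absent in 23 of the 31 fits that each left out 1 cow, whereas *RELB*, *NFKB2* and *ZC3H12A* were all called without GLYHC cow 37, which had the lowest joint level of the 10 genes in its group.

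**Figure D2:**
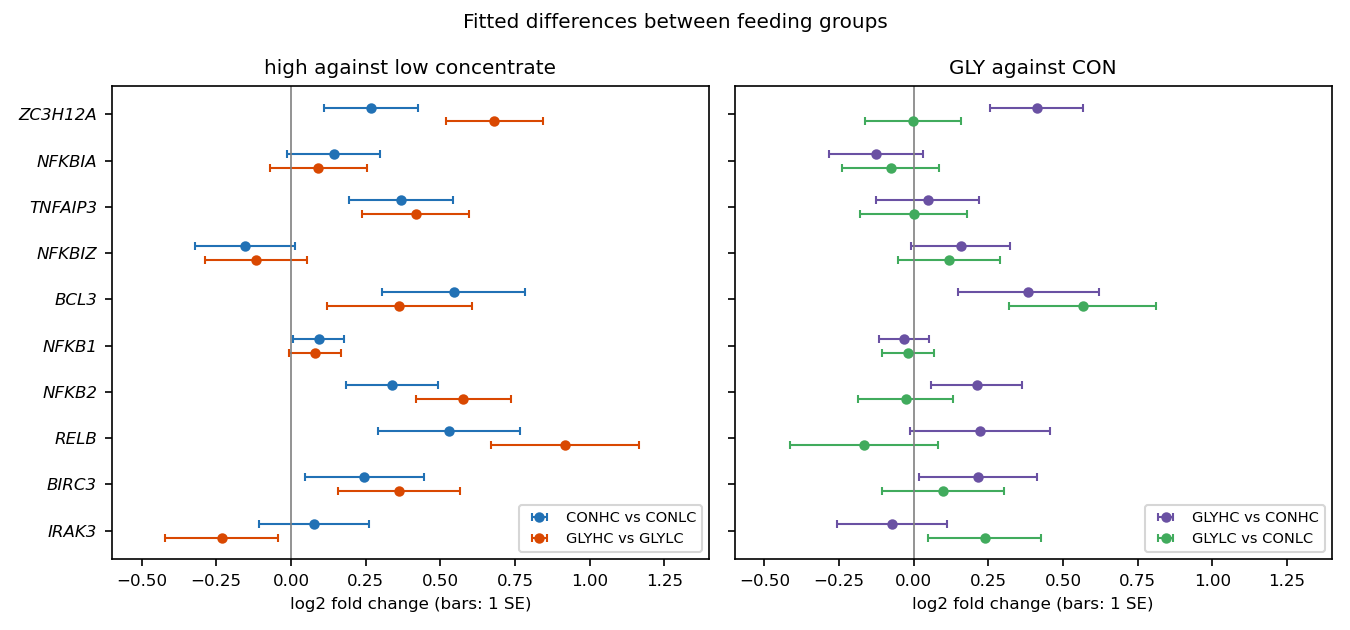
Fitted log2 fold changes (x axes) with 1 SE for the 10 genes (y axis), high against low concentrate in CON and in GLY cows on the left, and GLY against CON on each ration on the right. On the left 9 of 10 values in CON cows and 8 of 10 in GLY cows lie above 0, and on the right *BCL3* is the gene with the highest value in GLYLC against CONLC, at 0.56.

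When all 31 cows were fitted together with treatment as a second term, *RELB* (0.72, SE 0.17), *ZC3H12A* (0.47, SE 0.12) and *NFKB2* (0.45, SE 0.11) were called higher on high concentrate, where 1.45% of all genes were called. *BCL3* (0.45), *TNFAIP3* (0.39) and *BIRC3* (0.30) had the next log2 fold changes without a call, and the median over the 10 genes was 0.35 against -0.01 over all genes. All 16 HC cows had more *RELB* than the median LC cow. The GLY cows of the selecting contrast are contained in these values.

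The difference between both ration contrasts, the interaction of GLY and CFP, was called for 0 of the 10 genes and for 0% of all genes by edgeR, with 0 of the 10 and 4.21% of all genes at an unadjusted p under 0.05, and for 0 of the 10 by DESeq2. Its log2 values reached from -0.31 (SE 0.26) for *IRAK3* to 0.41 (SE 0.22) for *ZC3H12A*, followed by 0.39 (SE 0.34) for *RELB*. The 95% interval for *ZC3H12A* ran from -0.03 to 0.85.

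Effects of the glyphosate residues were compared within each ration, and these comparisons reuse the GLY cows of the selecting contrast. Between GLYHC and CONHC 0 of the 10 genes were called by edgeR and 0 by DESeq2, where edgeR called 0% of all genes, and 1 of the 10 against 2.92% of all genes had an unadjusted p under 0.05. That gene was *ZC3H12A*, whose GLYHC values had a part in the selection, so nothing is read from the count. It had 4.61 ± 1.21 (SD) CPM in GLYHC against 3.46 ± 0.543 in CONHC (log2 fold change 0.41, SE 0.16). *BCL3* had a log2 fold change of 0.38 (SE 0.24) in the same comparison, and *NFKBIA* the lowest value of -0.13 (SE 0.16). Between GLYLC and CONLC again 0 of the 10 were called by either tool, against 0.0628% of all genes by edgeR, and *BCL3* was the 1 gene of the 10 with an unadjusted p under 0.05 (5.65% of all genes), at 6.82 ± 3.32 against 4.60 ± 0.877 CPM (log2 fold change 0.56, SE 0.25). GLYLC cow 912 was the highest cow there, and the group medians were 5.70 and 4.39 CPM. In the same comparison 12 of 14 acute phase genes, the plasma proteins made by the liver in inflammation, were higher in GLYLC (median log2 fold change 0.55, 10 at an unadjusted p under 0.05, 0 called by edgeR). Of 13 immediate early genes, 11 were lower (median -0.26, 4 at an unadjusted p under 0.05, 0 called by edgeR). The part of these in the *BCL3* difference was not tested. For *ZC3H12A* and *TNFAIP3* the GLYLC and CONLC means were 2.86 and 2.86 CPM and 4.23 and 4.23 CPM, with fitted intervals of -0.32 to 0.31 and -0.35 to 0.35 on the log2 scale. The median log2 fold change of the 10 genes was 0.18 on high and -0.0016 on low concentrate.

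The rest of the pathway was described with 7 lists that hold 110 listed genes, 105 of them tested. In CON cows 66 of these were higher and 39 lower in CONHC, with a median log2 fold change of 0.05. Of all genes 46.1% were higher, with a median of -0.01. EdgeR called 0 of the 105 genes and 0 of all 15916 genes. At an unadjusted p under 0.05, 4 of the 105 were higher and 2 lower. This is near the share of all genes, 5.96%, so nothing is read from the count. Of the subunits outside the 10 genes, *RELA*, the main activating subunit, had -0.0038 (SE 0.09) and *REL*, the lymphoid subunit, 0.19 (SE 0.21). Among 4 further IkappaB proteins the values ran from -0.12 (SE 0.17) for *NFKBIB* to 0.14 (SE 0.21) for *NFKBIL1*. Among 11 genes of the activating kinases they ran from -0.15 (SE 0.15) for *TAB3* to 0.27 (SE 0.13) for *MAP3K8*, a kinase that is held by the *NFKB1* precursor.

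Of 11 receptors tested, the extremes in CON cows were *CD40*, a tumour necrosis factor family receptor that signals to the non-canonical branch, at 0.50 (SE 0.24), and the endotoxin coreceptor *CD14* at -0.06 (SE 0.11). Over all cows, a contrast that contains the selecting one, *CD40* was the 1 gene called of the 105 tested by edgeR, at 0.60 (SE 0.17) higher on high concentrate, where 1.45% of all genes were called. Among 22 adaptors and ubiquitin ligases the range was -0.48 (SE 0.20) for *TRAF1* to 0.19 (SE 0.13) for *IRAK2*. Among 27 further negative regulators it was -0.30 (SE 0.68) for *TNIP3*, with a mean level below 1 CPM, to 0.59 (SE 0.53) for the cytokine signalling inhibitor *SOCS3*. Of the 28 inflammatory target genes tested, the chemokine *CCL20* had the highest value, 1.69 (SE 0.54), and *PTX3* the lowest, -1.09 (SE 0.74), but both had a mean level below 1 CPM. None of these named genes was called in CON cows.

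Markers of macrophages and Kupffer cells had higher fitted levels on high concentrate, as had *RELB*, *NFKB2* and *ZC3H12A*. Of 14 such markers, 13 were higher and 1 was lower in CONHC than in CONLC, with a median log2 fold change of 0.33. Of these 14, 0 were called by edgeR and 3 had an unadjusted p under 0.05, against 5.96% of all genes. In GLYHC 13 were again higher and 1 was lower than in GLYLC, with a median of 0.38. There 0 were called by edgeR, against 0.201% of all genes. An unadjusted p under 0.05 was found for 5, against 12.5% of all genes. Called over all cows on high concentrate were *ADGRE1* (0.66, SE 0.17), *CD68* (0.61, SE 0.17) and *CD5L* (0.41, SE 0.11), where 1.45% of all genes were called. The summed level of the 14 markers had lowest, median and highest values of 830, 1038 and 1499 CPM in CONLC and 674, 1272 and 1783 CPM in CONHC. In GLYLC these were 828.5, 953 and 1501 CPM and in GLYHC 780, 1291 and 1898 CPM. The groups overlapped widely in this sum, and no marker of the list had a mean below 1 CPM. The part of macrophage content in the ration differences of the 10 genes was not tested.

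Like the macrophage markers, those of other cell types were not called between the CON groups by edgeR. Of 10 neutrophil and monocyte markers, 8 were higher and 2 lower in CONHC than in CONLC (median log2 fold change 0.25, 0 called by edgeR, 0 at an unadjusted p under 0.05), and *FCN1*, *MPO* and *CXCR2* had means below 1 CPM. Their summed level ranged from 18.8 to 50.6 CPM in CONLC and from 28.95 to 45.9 CPM in CONHC. The B cell markers *CD79A*, *CD79B* and *MS4A1* had means below 1 CPM, and the median log2 fold changes of lymphocyte and endothelial markers in CON cows were -0.01 and -0.04. Stellate cell and fibroblast markers had a median of -0.84 in CON cows, and 0 were called by edgeR. Of these 8 markers, 3 had an unadjusted p under 0.05, against 5.96% of all genes. CONLC cow 103 alone reached a summed 2165 CPM of these markers. Reads of the intestinal epithelium markers *FABP2*, *BCO1*, *MUC13* and *OLFM4* came almost wholly from GLYLC cow 912, which held between 96.0% (*OLFM4*) and 99.8% (*FABP2*) of each gene's reads over all cows. These 4 markers were called lower in GLYHC than in GLYLC and lower on high concentrate over all cows, and the first 2 and *OLFM4* were called higher in GLYLC than in CONLC. This marker list was written from earlier results of these data. Without cow 912 the log2 fold change of *RELB* between GLYHC and GLYLC was 1.09 in place of 0.92.

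How the genes varied together was examined over the 31 cows after subtracting each group's mean of log2 CPM. This removes differences between group means. The genes were still chosen with results of these cows known, so it is not certain that the p-values here are independent of the choice. Of 45 pairs, 40 had a positive Pearson r, the median r was 0.29, and 17 pairs passed an adjusted permutation p under 0.05, all of them positive. By Spearman's rho 13 pairs passed, all 13 among the 17. The highest correlation was that of *RELB* with *BIRC3* (r = 0.74, rho = 0.72, permutation p = 1e-05, the smallest that the permutations give, adjusted p = 0.00045 for r and 0.0018 for rho). It was 0.66 without the 2 cows farthest from the median. *NFKB1* with *NFKB2* (r = 0.72, rho = 0.65), *NFKB2* with *RELB* (r = 0.71, rho = 0.65) and *ZC3H12A* with *RELB* (r = 0.67, rho = 0.61) followed, each with an adjusted permutation p of 0.000675 for r and 0.00459 for rho.

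The passing pairs fell mostly among *RELB*, *BIRC3*, *NFKB2*, *NFKB1* and *TNFAIP3*, each of which passed with all 4 of the others by r. By rho *TNFAIP3* with *BIRC3* did not pass, at an adjusted permutation p of 0.0577. *ZC3H12A* passed with *RELB*, *NFKB2* and *BIRC3* by r and with *RELB* alone by rho, and its r with *NFKB2* fell from 0.61 to 0.30 and that with *BIRC3* from 0.53 to 0.31 without the 2 cows farthest from the median, so these relations rest partly on those cows. *NFKBIA* passed with *TNFAIP3* (r = 0.46, rho = 0.43, adjusted permutation p = 0.0264 for r and 0.0577 for rho) and *NFKB2* (r = 0.46, rho = 0.53, adjusted permutation p = 0.0171). The other 2 passing pairs joined *NFKBIZ* with *BCL3* (r = 0.62, rho = 0.50, adjusted permutation p = 0.00604) and with *IRAK3* (r = 0.52, rho = 0.53, adjusted permutation p = 0.0179). *NFKBIZ* had an r of 0.01 with *RELB* and -0.34 with *NFKBIA*, the lowest of all pairs, with an adjusted permutation p of 0.241. The correlation of *NFKBIZ* with *BCL3* was 0.37 without the 2 farthest cows.

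**Figure D3:**
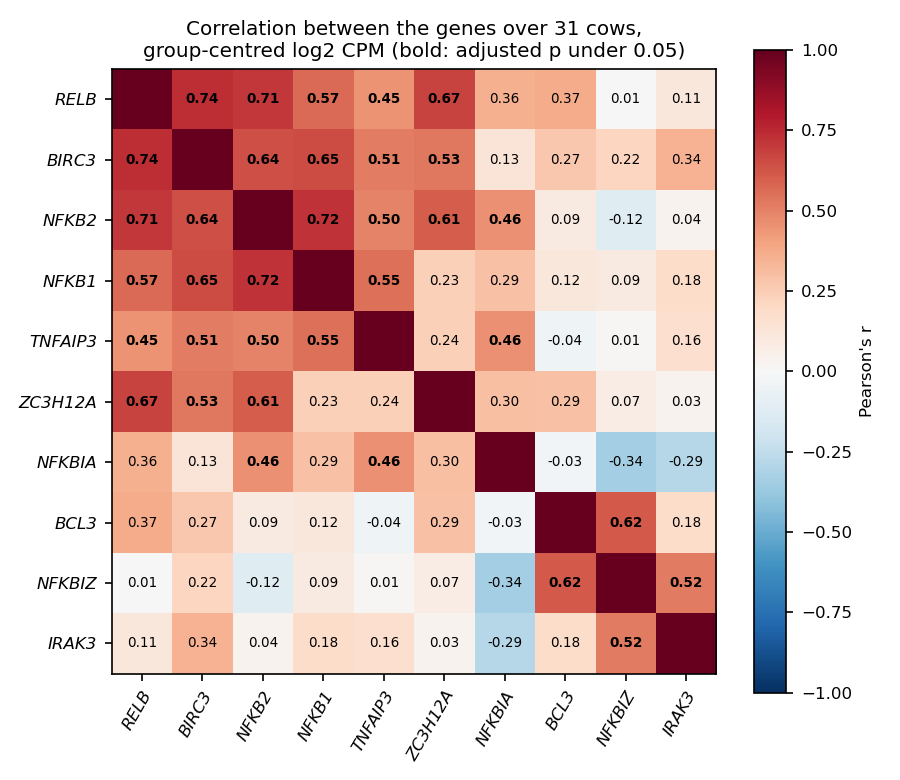
Pearson's r between the 10 genes over 31 cows on group-centred log2 CPM (colour scale from -1 to 1, both axes list the genes), with bold numbers for pairs whose adjusted permutation p was under 0.05. The upper left block from *RELB* to *TNFAIP3* holds values from 0.45 to 0.74, and *NFKBIZ* stands out with 0.62 for *BCL3* and 0.52 for *IRAK3*.

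Library size had no passing relation with any of the 10 genes (10 relations, r from -0.38 to 0.16, rho from -0.32 to 0.16, smallest adjusted permutation p = 0.324). Sequencing batches were not given in the sources used here. Scores of 7 gene lists, each the mean log2 CPM of the listed genes with a mean of at least 1 CPM, were also set against the 10 genes in 70 relations, a comparison added after the data were seen. Of these, 6 passed an adjusted permutation p under 0.05 for r.

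*NFKBIZ* correlated with the score of 14 acute phase genes (r = 0.77, rho = 0.71, adjusted permutation p = 0.0014). Without the 2 cows farthest from the median of the score r was 0.70. *BCL3* correlated with the same score (r = 0.65, adjusted permutation p = 0.0098), but its rho of 0.42 did not pass, at an adjusted permutation p of 0.169. *RELB* had an r of 0.01 with the acute phase score. Instead *RELB* (r = 0.72, rho = 0.70, adjusted permutation p = 0.0014), *NFKB1* (r = 0.62, rho = 0.58, adjusted permutation p = 0.00747), *BIRC3* (r = 0.60, rho = 0.58, adjusted permutation p = 0.00857) and *NFKB2* (r = 0.55, rho = 0.53, adjusted permutation p = 0.0185) followed the score of 11 immediate early genes, which respond within minutes to stimuli and include the transcription factors *FOS* and *EGR1*. Without the 2 farthest cows r for *RELB* was 0.71 and for *NFKB2* 0.49. No score of a cell type passed with any of the 10 genes. The highest r with such a score was that of *RELB* with the neutrophil and monocyte score. It was 0.52 (rho = 0.43, adjusted permutation p = 0.0979 for r and 0.169 for rho), and 0.37 without the 2 farthest cows. With the macrophage score *RELB* had an r of 0.29 and *ZC3H12A* of 0.34.

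**Figure D4:**
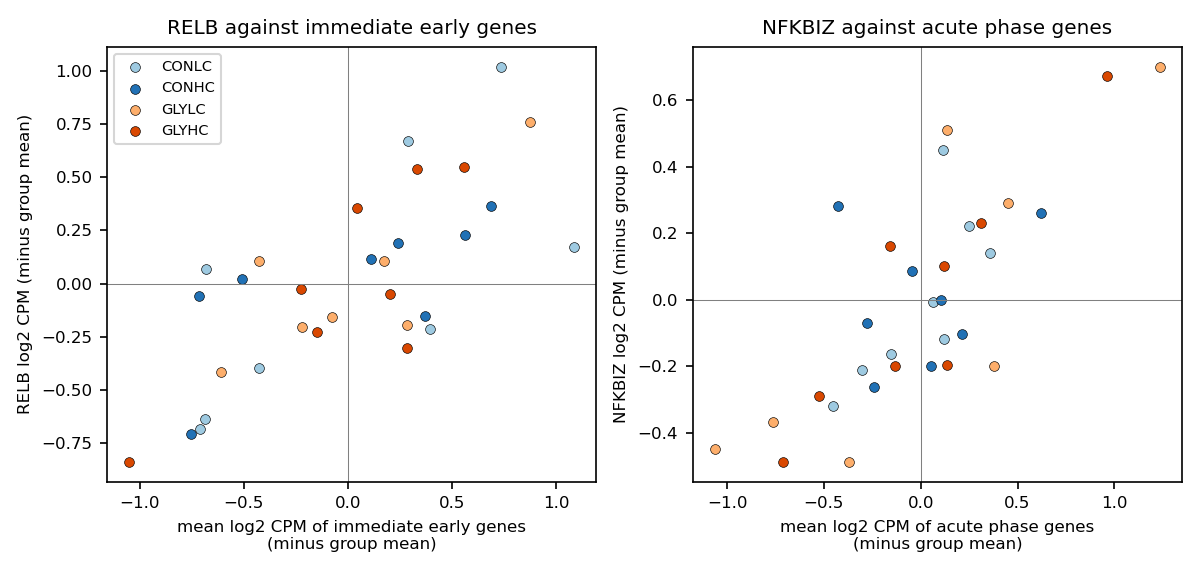
Group-centred log2 CPM of *RELB* against the mean of 11 immediate early genes (left) and of *NFKBIZ* against the mean of 14 acute phase genes (right), each axis on the log2 scale and each point 1 of 31 cows, coloured by group. Both clouds rise from lower left to upper right, with r of 0.72 and 0.77, and GLYLC cow 912 and GLYHC cow 32 lie at the upper right of the *NFKBIZ* panel.

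Of the acute phase genes, 12 of 14 were higher in CONHC than in CONLC and 12 of 14 were lower in GLYHC than in GLYLC, with median log2 fold changes of 0.29 and -0.54 and 0 called by edgeR in either. The difference between these directions was not tested for the list. At an unadjusted p under 0.05 there were 2 higher in CON and 5 lower in GLY cows. The share of all genes at this threshold, in either direction, was 5.96% in CON and 12.5% in GLY cows. The summed level of the acute phase genes was highest in GLYLC cow 912. Of 13 immediate early genes tested, 5 were higher and 8 lower in CONHC, and 11 were higher and 2 lower in GLYHC, with 0 called by edgeR in either comparison.

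Genes outside the list with the profile most like the mean of the 10, each scaled to its SD, were found among 11135 genes with a symbol and a mean of at least 1 CPM. They were *RND1* (r = 0.76), *PDXK* (r = 0.76), *SLCO4A1* (r = 0.75), *CTSC* (r = 0.74) and *KPNA2* (r = 0.74), over 31 cows that share libraries and scaling, and are listed as a description. Among the 10 genes, the correlation with the mean of the other 9 was highest for *BIRC3* (0.77) and *RELB* (0.76) and lowest for *NFKBIZ* (0.19), *IRAK3* (0.22) and *NFKBIA* (0.24).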

How the data were processed

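Per the submitters' processing notes, HISAT2 2.1.0 placed the trimmed reads of each library on the bovine build UMD3.1, and HTSeq 0.8.0 assigned them to genes. The authors deposited whole-number read counts per gene and cow, not normalized, which were used here. Whether counting used strand is not given in the sources used here, so reads of overlapping antisense genes cannot be told apart. A deposited table of normalized values was not used.

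Counts were fitted with edgeR 4.0.16 (R 4.3.3): TMM scaling, genes with at least 20 reads summed over the 31 cows, 1 model with 4 groups (or treatment plus CFP) and quasi-likelihood F tests. Adjusted p-values follow Benjamini-Hochberg over 15916 genes. Every cow is 1 animal and 1 library, so p-values measure the spread between animals. Correlations used log2 CPM (prior count 2) and 100000 two-sided permutations of cows within groups, with Benjamini-Hochberg adjustment over the relations of a family. Alternatives were RLE and upper-quartile scaling, other filters, a robust fit, 2-group fits, DESeq2 1.42.0, another prior count and leaving out each cow. Scripts were tested on simulated data. Total counts of 11675775 to 36675542 reads per cow limit the precision of the low genes.

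The 10 genes and all gene lists were chosen with earlier results of these data known. All 10 genes were named, from the other lists the called genes and, for the pathway lists, the genes with the highest and lowest change in CON cows, and the 5 genes most alike in profile. Other genes, such as single markers named for low levels, were chosen after their values were seen. Coordinates and sequences were not used here.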

Additional observations from a re-analysis of the deposited data

Results flagged for a closer look

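In 40 tests of whether the highest or lowest cow of a group stood apart from the other cows, 1 for each gene and group, 5 values in 4 cows did so. Chance gives about 1 in 20 for independent tests. The genes were correlated across cows, and all 5 values were high ones on the CPM scale, so nothing is read from the count. *BCL3* had 18.3 CPM in GLYHC cow 32, where the next cow had 10.5 CPM, and 13.99 CPM in GLYLC cow 912, where the next cow had 7.29 CPM. *RELB* had 2.88 CPM in GLYLC cow 912, with 1.80 CPM in the next cow. *BIRC3* had 31.2 CPM in CONHC cow 134, with 20.7 CPM in the next cow. *IRAK3* had 13.1 CPM in GLYHC cow 152, with 8.31 CPM in the next cow. GLYLC cow 912 also held almost all reads of 4 intestinal epithelium markers. It had the highest summed level of acute phase genes and the lowest of hepatocyte markers. The part of these in its *BCL3* and *RELB* levels was not tested.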

How the results depend on the processing

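The fold changes kept their direction in CON cows in 389 of 390 fits of single genes and in GLY cows in all fits but 1. Leaving out each cow gave -0.058 to 0.15 for *IRAK3* in CON cows and -0.23 to 0.021 for *NFKBIZ* in GLY cows. The number of the 10 genes called between GLYHC and GLYLC, 1 in the report, was 0 without a filter on low counts, with the filterByExpr filter, with a robust fit, with edgeR on only the 2 groups and at an adjusted p under 0.05. It was 3 with DESeq2 on all cows, 2 with DESeq2 on only the 2 groups, and 0 to 3 when each cow was left out. Over all genes that comparison gave 32 calls, 66 with RLE scaling, 23 without a filter, 11 with filterByExpr, 8 with a robust fit, 0 with edgeR on only the 2 groups, 143 and 87 with DESeq2, and 0 to 150 without single cows. Over all cows the 3 genes called on high concentrate became 0 at an adjusted p under 0.05, and 3 to 4 without single cows, where all genes gave 231 calls, 134 without a filter, 434 with DESeq2 and 83 to 404 without single cows. Between CONHC and CONLC 0 of all genes were called, 27 with DESeq2 on all cows and 81 with DESeq2 on only the 2 groups, and 0 to 7 without single cows. The 4 genes with an unadjusted p under 0.05 there were 0 to 5 without single cows. The 17 correlated pairs were 12 to 18 without single cows. The causes of these changes were not tested. Depth limits *RELB*, with as few as 14 reads in a cow.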

Other observations

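Single cows carried high or low levels of many of the 10 genes at once. GLYHC cow 152 was among the 3 highest of the 31 cows for 6 genes (*BIRC3*, *IRAK3*, *NFKB2*, *RELB*, *TNFAIP3* and *ZC3H12A*) and above the median of all cows for all 10, and GLYHC cow 117 was among the 3 highest for 5. CONLC cow 260 was above the median for all 10 without being the highest for any. CONHC cow 41 had the highest level of 3 genes. At the other end, GLYHC cow 37 was above the median for 1 gene and among the 3 lowest for 4, and CONLC cow 259 and GLYLC cow 905 were among the 3 lowest for 4 as well. CONLC cow 166 was above the median for 0 genes but among the 3 lowest for 0.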
